A study of Mus musculus with 13 samples.

Results

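Chromatin remodellers of the ISWI, CHD, INO80 and ATRX families were followed through the differentiation of female mouse embryonic stem cells (mESCs) with and without knockdown of Smarcc1. The 10 genes were picked by name, as the table entries called Smarca5, Smarca1, Chd1, Chd3, Chd4, Chd7, Chd8, Ino80, Atrx and Ep400, out of 25965 entries in all. Each had 1 entry, and all 10 were among the 13406 genes tested, those whose log2 CPM averaged 0 or more on days 4 to 7. CPM is the read count of a gene scaled to a common number of mapped reads.

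RNA-seq was made on 13 libraries of mESC lines from FVB dams and CAST sires, an F1 hybrid with both X chromosomes active before differentiation. Cells were expanded in 2i medium and weaned into DME HiHi medium, transduced with a hairpin on day 2 and selected with puromycin on day 3. The control group carried a nonsilencing hairpin (Nons), and the knockdown groups carried the hairpins Smarcc1.6 or Smarcc1.7, each with 1 library on days 4, 5, 6 and 7. Day0 was 1 library of undifferentiated cells that carried no hairpin and had no matched control. Nothing in the labels says that the libraries of a group came from separate cultures. The p-values of comparisons between groups thus measure only the spread between libraries of these successive days. The groups share the 4 Nons libraries in every comparison with a hairpin. Where both hairpins were compared with Nons together, their libraries of a day counted as separate points. The p-values of a change per day measure the spread of the 12 libraries of days 4 to 7 around a straight line. They treat the 3 libraries of a day as separate points, although only 4 days were sampled.

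Remodellers are motor enzymes that use ATP to slide, evict or exchange nucleosomes. ISWI enzymes space nucleosomes into regular arrays, CHD enzymes carry chromodomains that read histone tails and include the motor subunits of the NuRD repressor complex, and the INO80 family moves nucleosomes that hold the histone variant H2A.Z. They act beside BAF, the SWI/SNF complex of which Smarcc1 is a core subunit, in keeping embryonic stem cells pluripotent and in the changes of gene expression as they differentiate.

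The guide strands of the 3 hairpins are shown because every comparison between groups rests on them. The capitals mark bases 2 to 8 of each guide, the seed through which it first pairs with an RNA.
Nons: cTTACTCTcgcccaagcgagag
Smarcc1.6: tGTAACTGcttcttcatcctgc
Smarcc1.7: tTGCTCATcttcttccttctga
The guide of Smarcc1.6 pairs with all 22 bases of chr9:110177472-110177493 (mm10) in the coding part of exon 13 of Smarcc1, and that of Smarcc1.7 with chr9:110173911-110173932 in the coding part of exon 11. Against the transcripts of the 10 remodellers the closest match of either guide left 5 to 8 of the 22 bases unpaired. The guides of both hairpins had 5 mismatches at their nearest site in Chd3, as did Smarcc1.6 in Ep400 and Smarcc1.7 in Atrx. The Nons guide had 6 at its nearest site in Ino80. Matches to the seed alone were not searched.

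Smarcc1 was lower than in Nons in 8 of 8 comparisons of a hairpin with Nons on the same day. Its level over days 4 to 7 was 9.10, 8.87, 8.28 and 7.89 log2 CPM in Nons. In Smarcc1.6 it was 7.42, 7.40, 7.28 and 7.28, and in Smarcc1.7 it was 7.96, 7.78, 7.17 and 7.51. The libraries matched their labels on every day, and the mean difference of the hairpins from Nons was -1.41 on day 4 and -0.50 on day 7. The change over all days was -1.06 ± 0.14 (log2, SE, limma adjusted p = 0.00232, n = 4 days, with both hairpin libraries of a day counted separately).

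Depth ran from 13993440 to 63548093 mapped reads, and the members had between 131 reads (Smarca1 in Smarcc1.7 on day 5) and 65487 reads (Chd4 in Smarcc1.6 on day 4) in the libraries of days 4 to 7. Day 6, in every group, stood apart together with Day0. Genes took 85.3% to 86.5% of the mapped reads of these 4 libraries and 91.6% to 92.6% in the other 9, and processed pseudogenes took at most 1.97% of the gene reads in the former and at most 0.483% in the latter. A hairpin and Nons of the same day always came from the same set of libraries, whereas a comparison between days crosses the sets. In bulk RNA, fewer cells that express a gene and less RNA of that gene per cell cannot be told apart.

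The label of the cells was checked against markers. Day0 held the pluripotency markers Pou5f1 at 10.24 log2 CPM, Nanog at 10.47 and Esrrb at 9.08, and none of the 10 pluripotency markers was at 0 in any group. Their summed level was 5528 CPM at Day0, 1125 to 1761 in Nons, 1394 to 2762 with the hairpin Smarcc1.6 and 1127 to 2279 with Smarcc1.7. With knockdown, 7 of the 10 were called higher and 0 lower, and per day 7 were called lower and 0 higher. Of the 8 tested markers of mesoderm, endoderm and trophoblast, 4 were called lower with knockdown and 6 higher per day, among 10 listed that summed to 24.5 CPM at Day0, 63.3 to 2528 in Nons, 87.6 to 2033 with Smarcc1.6 and 71.9 to 1629 with Smarcc1.7. Markers of differentiation thus differed between groups as well as between days, and their part in the values of the remodellers was not tested.

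Chd4, a motor of NuRD, was the most abundant of the 10 per kb of exon. The length was that of all GENCODE exons of a gene joined, which can exceed that of a single transcript. It was 21757 bases for Atrx and 6118 to 16523 for the others, so the order rests on this measure. Its mean over the 12 libraries of days 4 to 7 was 6.45 ± 0.37 log2 CPM per kb of exon (SD), and it was above Chd1, next in order, in 12 of 12 libraries. Chd1 at 4.95 ± 0.50 and Smarca5 at 4.85 ± 0.80 could not be ordered, since Chd1 was the higher in 6 of 12 libraries. Atrx followed at 4.45 ± 0.50, then Ino80 at 3.70 ± 0.78, Ep400 at 3.50 ± 0.19 and Chd8 at 3.40 ± 0.38, where the GENCODE gene used for its length is longer than its table entry. Ino80 was above Ep400 in 7 of 12 libraries, and Ep400 above Chd8 in 9 of 12. Chd7 stood at 2.73 ± 0.44 and above Chd3 in 12 of 12 libraries. Chd3 at 1.15 ± 0.70 and Smarca1 at 0.81 ± 0.75 were the lowest, and Chd3 was above Smarca1 in 8 of 12. At Day0, across the library sets, the order was different for 2 genes in particular, with Atrx second at 5.04 log2 CPM per kb and Chd3 seventh at 3.02, above Chd8 and Chd7.

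**Figure D1:**
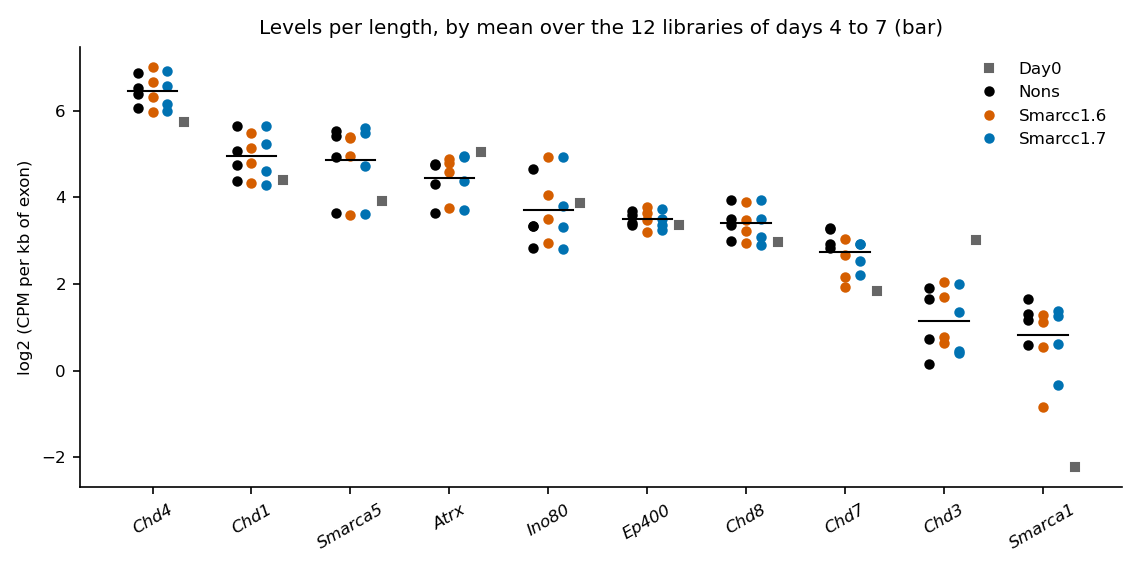
Level of each remodeller as log2 CPM per kb of exon (y axis), 1 point per library coloured by group, with the mean of the 12 libraries of days 4 to 7 as a bar and Day0 as a grey square. Chd4 lies above the others in every library, and Smarca1 has the widest gap between Day0, at -2.23, and its mean of 0.81, a gap that crosses the library sets.

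The effect of Smarcc1 knockdown was asked first. Chd7 was the 1 remodeller of 10 that passed the threshold, and it was lower with knockdown, against 11.6% of all tested genes that were called in either direction. Smarca1 had a change of -0.55 that missed the threshold, Ino80 and Atrx had changes of 0.25 and 0.13 that missed it, and the other 6 differed by at most 0.08 in either direction on the log2 scale. The median change was -0.02 over the 10 genes and -0.01 over all tested genes.

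Chd7 (chr4:8690406-8867659, mm10, plus strand) encodes an enhancer-bound CHD remodeller that is required in neural crest development. Its level in Nons was 6.71, 7.06, 7.08 and 6.62 log2 CPM on days 4, 5, 6 and 7. In Smarcc1.6 it was 5.72, 5.96, 6.81 and 6.46, and in Smarcc1.7 it was 5.99, 6.31, 6.70 and 6.72. Each hairpin was below Nons on days 4, 5 and 6, whereas on day 7 Smarcc1.7 lay above Nons and Smarcc1.6 below it. On day 4 Smarcc1.6 held 50.6% of the Nons level and Smarcc1.7 held 60.9%, and on day 5 they held 46.4% and 59.5%. By day 7 they held 89.6% and 107%. At Day0, before any hairpin and in a library of the day 6 set, the level was 5.62.

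Over the 4 days the change of Chd7 was -0.53 ± 0.13 (log2, SE, limma adjusted p = 0.0275), and 7 of 8 same-day differences were negative. In the model that held all 3 groups, Smarcc1.6 gave -0.63 ± 0.15 against Nons (limma adjusted p = 0.0288), again the 1 remodeller of 10 called, against 9.3% of all genes. In the same model Smarcc1.7 gave -0.44 ± 0.15 (limma adjusted p = 0.141), with 0 of 10 remodellers called, against 2.45% of all genes. At an unadjusted p under 0.05 there were 2 of the 10 remodellers and 2838 of the 13406 tested genes. The hairpins themselves differed by 0.19 ± 0.15 in Chd7 (limma adjusted p = 0.989), a difference whose 95% interval ran from -0.14 to 0.53, and no remodeller was called between them (0 of 10, and 0.0% of all genes, with 0 remodellers and 530 genes at an unadjusted p under 0.05). The call of Chd7 was lost without the Nons library of day 4 (adjusted p = 0.0724), day 5 (0.137) or day 6 (0.054), without all libraries of those days (0.0892, 0.152 and 0.0845), with a limma spread that does not depend on expression (0.0561) and with day left out of the model (1.00). It was also lost when the Nons libraries were fitted with those of 1 hairpin only, Smarcc1.6 (-0.63, adjusted p = 0.129) or Smarcc1.7 (-0.44, adjusted p = 0.172). The call of Smarcc1.6 against Nons in the model of 3 groups was lost without the Nons or the Smarcc1.6 library of day 4 (0.0537 and 0.0798) or of day 5 (0.103 and 0.128), without all libraries of day 4 (0.1003), day 5 (0.213) or day 6 (0.0748), with a spread that does not depend on expression (0.0653) and with day left out (1.00). The summed pluripotency markers stood higher with knockdown on day 4 (1585 CPM in Nons, 2762 with Smarcc1.6 and 2279 with Smarcc1.7) and on day 5 (1524, 2041 and 1723), the days on which Chd7 was lowest relative to Nons. In the same order the sums were 1761, 1763 and 1881 on day 6, and 1125, 1394 and 1127 on day 7. The mean log2 CPM of the 10 markers was higher with both hairpins on day 6 (4.35, 5.28 and 4.77) and day 7 (3.96, 4.63 and 4.30) as well. The part of these markers in the level of Chd7 was not tested.

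**Figure D2:**
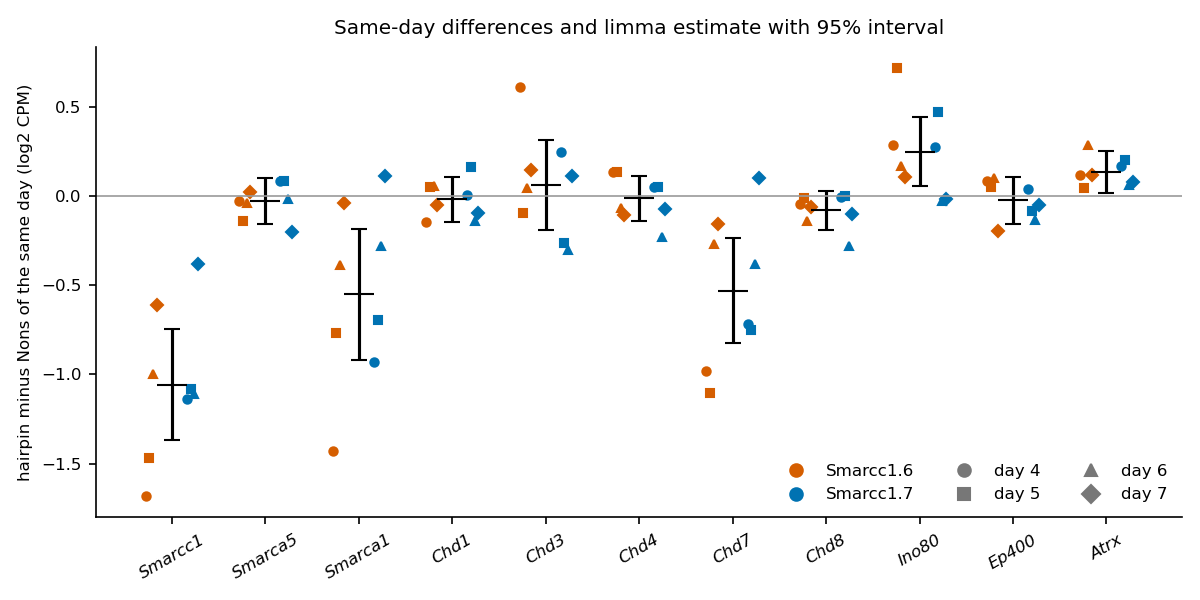
Difference of each hairpin library from the Nons library of the same day in log2 CPM (y axis) for Smarcc1 and the 10 remodellers, with colour for the hairpin and symbol shape for the day. Black bars show the limma estimate for both hairpins with its 95% interval, which lies below 0 for Smarcc1 (-1.06), Smarca1 (-0.55) and Chd7 (-0.53) and above 0 for Ino80 (0.25) and Atrx (0.13).

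Smarca1 (chrX:47809368-47892974, minus strand) encodes SNF2L, the ISWI motor best known from neurons and other differentiated cells. It was at 0.38 log2 CPM at Day0, where 29 reads were counted. Its levels over days 4 to 7 were 3.21, 3.92, 4.28 and 3.77 in the Nons libraries. In Smarcc1.6 it was 1.78, 3.15, 3.89 and 3.73, and in Smarcc1.7 it was 2.28, 3.23, 4.00 and 3.88. Nons was the highest library on days 4, 5 and 6, and on day 7 it lay between the hairpins. On day 4 the hairpins held 37.2% and 52.5% of the Nons level, and on day 7 they held 97.4% and 108%. The change over all days was -0.55 ± 0.17 (log2, SE, limma adjusted p = 0.0538), with 7 of 8 same-day differences negative. It passed the threshold without the day 7 library of Nons (-0.75, adjusted p = 0.0149) or of Smarcc1.7 (-0.61, adjusted p = 0.0426), and with log2(CPM + 1) in place of the deposited values (adjusted p = 0.0469). Without the Nons library of day 4 it was -0.34 (adjusted p = 0.160).

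Whether the difference from Nons changed with day was tested as the product of knockdown and day. No remodeller passed (0 of 10, and 0.0% of all genes, with 1 remodeller and 745 genes at an unadjusted p under 0.05). The difference of Chd7 changed by 0.31 ± 0.13 per day (log2, SE, unadjusted p = 0.0399, limma adjusted p = 0.892), and that of Smarca1 by 0.40 ± 0.21 per day (limma adjusted p = 0.968). When day entered as a factor, a choice made after the spread between days had been seen, Smarca1 passed with the same 0.40 per day (SE 0.09, limma adjusted p = 0.0358), and Chd7 did not (SE 0.08, limma adjusted p = 0.0617), against 3.75% of all genes. The difference in Smarcc1 itself changed by 0.30 ± 0.11 per day over the same days (limma adjusted p = 0.831 with day as a number), and its part in the other values was not tested.

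Ino80 (chr2:119373042-119477687, minus strand), the motor of the complex that carries its name, had higher values with knockdown on the early days. It stood at 7.42, 6.09, 6.10 and 5.60 log2 CPM in Nons, at 7.71, 6.81, 6.27 and 5.71 in Smarcc1.6, and at 7.70, 6.56, 6.07 and 5.58 in Smarcc1.7. Both hairpins were above Nons on days 4 and 5, and Smarcc1.7 was just below it on days 6 and 7. On day 5 the hairpins held 164% and 138% of the Nons level. The change was 0.25 ± 0.09 (log2, SE, limma adjusted p = 0.0896), with 6 of 8 differences positive. Smarcc1.6 against Nons gave 0.32 ± 0.10 (limma adjusted p = 0.0665), which became 0.39 and passed without the Nons library of day 7 (adjusted p = 0.0358). Without the Nons library of day 5 the change was 0.13 (adjusted p = 0.382), and that of Smarcc1.6 was 0.20 (adjusted p = 0.194).

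Atrx (chrX:105797615-105929397, minus strand), which with its partner Daxx places histone H3.3 in heterochromatin and at telomeres, was higher with knockdown in 8 of 8 same-day differences. These ran from 0.04 to 0.29, and the change was 0.13 ± 0.05 (log2, SE, limma adjusted p = 0.127), or 110% of the Nons level. Chd8, a CHD protein that binds beta-catenin and is linked to autism, was lower in 8 of 8 differences, from -0.28 to -0.0017, and its change of -0.08 ± 0.05 did not pass (limma adjusted p = 0.325). These are 2 of 10 remodellers whose 8 differences had the same sign, against 15.0% of all tested genes. X-linked genes had a median change of 0.05 with knockdown, against -0.01 for all genes.

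The remaining 5 had intervals that held 0. The 95% interval of the change was -0.16 to 0.10 for Smarca5, -0.14 to 0.10 for Chd1, -0.14 to 0.11 for Chd4 and -0.15 to 0.11 for Ep400 (all log2). Chd3 had the widest of the 5, -0.19 to 0.31, and its same-day differences ran from -0.30 to 0.61. The largest of these was Smarcc1.6 on day 4, at 3.84 log2 CPM against 3.24 in Nons.

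The second question was how the remodellers changed as the cells differentiated. Over days 4 to 7, 8 of the 10 remodellers changed per day, against 60.5% of all tested genes. Of these, 6 fell, against 25.6% of all genes, and 2 rose, against 34.9%. The median change per day was -0.31 over the 10 remodellers, 0.04 over all tested genes and -0.10 over X-linked genes. In this model the 3 libraries of a day counted as separate points, so its p-values do not measure the spread between days alone. The same 8 were called in the same directions when each library was centred on its autosomal median, a scaling under which the share of all called genes that rose went from 57.7% to 43.0%.

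**Figure D3:**
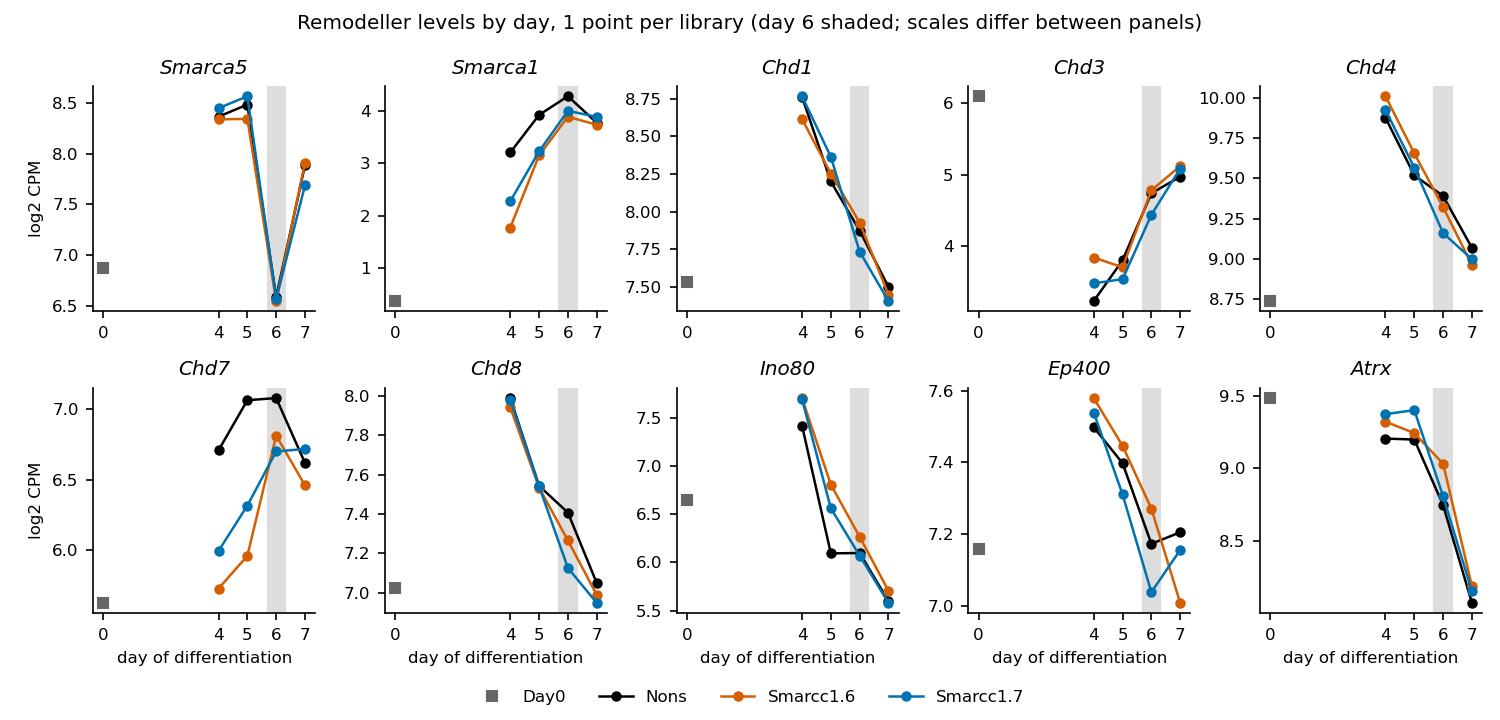
Level of each remodeller in log2 CPM (y axis, scaled per panel) by day of differentiation (x axis), 1 point per library, with lines joining the libraries of a group, Day0 as a grey square and day 6 shaded. Ino80, Chd1, Chd8, Chd4 and Atrx are lower on day 7 than on day 4 in all 3 groups, Chd3 is higher, and Smarca5 is lowest on day 6.

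Among the ISWI motors, Smarca1 rose by 0.47 ± 0.11 per day (log2, SE, limma adjusted p = 0.0041). From day 4 to day 7 it reached 148% of its starting level in Nons, 388% with Smarcc1.6 and 305% with Smarcc1.7, and without the libraries of day 4 the change was 0.18 per day and was not called (adjusted p = 0.263). Smarca5 (chr8:80698507-80739497, minus strand) encodes SNF2H, the ISWI motor of most dividing cells. It stood at 8.36, 8.48, 6.59 and 7.89 log2 CPM in Nons, at 8.34, 8.34, 6.55 and 7.91 in Smarcc1.6, and at 8.45, 8.56, 6.57 and 7.69 in Smarcc1.7. Day 6 minus the mean of days 5 and 7 came to -1.598 for Nons, -1.579 for Smarcc1.6 and -1.558 for Smarcc1.7, while the 3 libraries of day 6 lay close together. A drop of at least 1 in all 3 groups was seen in 2.47% of all genes, and in 1 of the 10 remodellers. The Day0 library, of the same set as day 6, had a level of 6.88.

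Smarca5 has near-identical copies. A search of its longest transcript against all GENCODE transcripts found 6 processed pseudogenes with 96.8% to 98.1% identity over 2871 to 3181 bases. All were on chromosome 4, and none of them had an entry in the table. Among the other 9 remodellers, Ep400 matched 1 processed pseudogene (100% over 569 bases) and Chd8 matched 1 (89.5% over 436 bases). The part of these copies, and of the lower share of reads in genes on day 6, in the level of Smarca5 was not tested. Its change per day was -0.36 ± 0.18 (log2, SE, limma adjusted p = 0.111) over the 12 libraries, -0.20 (adjusted p = 0.00564) without day 6 and -0.91 (adjusted p = 0.00777) without day 7, so its call depended on the days that were included. Without day 6, 9 of 10 remodellers were called, 7 lower and 2 higher, against 62.4% of all genes.

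The CHD family divided. Chd3 and Chd4 are alternative motors of NuRD, which also holds histone deacetylases. Chd4 (chr6:125095981-125130591, plus strand) fell from 9.88 to 9.07 log2 CPM in Nons, from 10.01 to 8.96 in Smarcc1.6 and from 9.92 to 8.998 in Smarcc1.7 between day 4 and day 7, a change of -0.31 ± 0.03 per day (log2, SE, limma adjusted p = 2.11e-05). Chd3 (chr11:69343273-69369406, minus strand) was at 3.24, 3.81, 4.74 and 4.97 in Nons, at 3.84, 3.71, 4.78 and 5.12 in Smarcc1.6, and at 3.48, 3.54, 4.44 and 5.09 in Smarcc1.7. It rose by 0.56 ± 0.06 per day (limma adjusted p = 3.46e-05), and every library of days 6 and 7 was above every library of days 4 and 5. Per kb of exon, Chd4 exceeded Chd3 by 75.5 to 105 fold on day 4 and by 15.1 to 18.0 fold on day 7, against 6.57 fold at Day0, a value that crosses the library sets.

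Chd1 (chr17:15704967-15772610, plus strand), a reader of methylated lysine 4 on histone H3 that accompanies transcription, was lower on each day than on the day before in all 3 groups. In Nons it was at 8.76, 8.20, 7.87 and 7.50 log2 CPM, and on day 7 it held 41.6% of its day 4 level in Nons, 44.5% with Smarcc1.6 and 38.9% with Smarcc1.7. Its change was -0.42 ± 0.03 per day (log2, SE, limma adjusted p = 1.95e-06). Chd8 (chr14:52198151-52237791, minus strand) went from 7.99 to 7.05 in Nons and fell by 0.32 per day (SE 0.03, limma adjusted p = 6.56e-06), ending at 49.0% to 52.2% of its day 4 level in the 3 groups. An antisense gene, Gm26590, shares 953 exon bases with Chd8, and whether reads were counted by strand is not given in the sources used here. Chd7 changed by 0.18 ± 0.07 per day (limma adjusted p = 0.0544), which passed without the Nons library of day 7 (0.27, adjusted p = 0.00347). It was 0.09 with each library centred on its autosomal median (adjusted p = 0.289) and 0.08 without the libraries of day 4 (adjusted p = 0.632). It ended at 93.9% of its day 4 level in Nons and at 166% and 165% in the hairpins.

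Of the INO80 family, Ino80 had the largest fall of the 10, -0.63 ± 0.06 per day (log2, SE, limma adjusted p = 1.48e-05). On day 7 it held 28.3% of its day 4 level in Nons, 25.0% with Smarcc1.6 and 23.1% with Smarcc1.7, and most of the fall in Nons lay between day 4 (7.42) and day 5 (6.09). Ep400 (chr5:110664373-110770717, minus strand), the motor of the TIP60 complex that exchanges H2A.Z into chromatin, varied least. Its levels lay between 7.01 and 7.58 log2 CPM in the 12 libraries, a range of 0.57 against 1.04 to 2.50 for the other 9. It fell by 0.15 per day (SE 0.03, limma adjusted p = 0.00157), and this call was lost without the libraries of day 4 (-0.13, adjusted p = 0.0697).

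Atrx was at 9.21, 9.20, 8.75 and 8.07 log2 CPM in Nons, at 9.32, 9.24, 9.03 and 8.19 in Smarcc1.6, and at 9.37, 9.40, 8.81 and 8.15 in Smarcc1.7, after 9.49 at Day0. The drop came late, with the levels of days 4 and 5 close together in each group and day 7 the lowest. It fell by 0.39 per day (SE 0.06, limma adjusted p = 0.000181) and ended at 42.8% to 45.6% of its day 4 level.

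**Figure D4:**
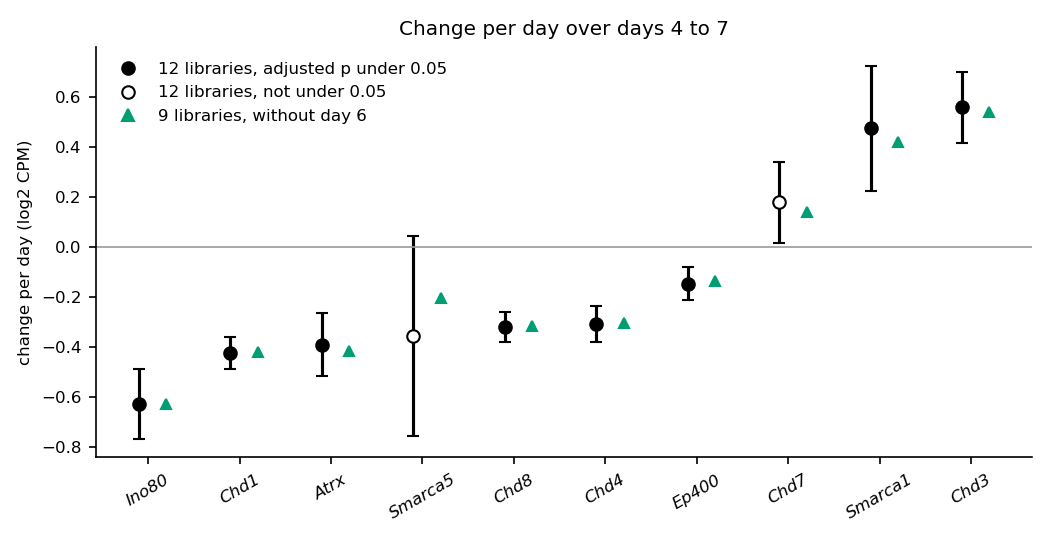
Change per day over days 4 to 7 in log2 CPM (y axis) for each remodeller from limma, with its 95% interval (circles, filled where the adjusted p was under 0.05), beside the value without the day 6 libraries (green triangles). Ino80 has the largest fall (-0.63) and Chd3 the largest rise (0.56), and Smarca5 is the gene whose value moves most without day 6, from -0.36 to -0.20.

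Day0 shares its library set with day 6 and not with the other days, and with 1 library it carries no test. Smarca1 was 3.51 to 3.90 log2 units higher on day 6 than at Day0 in the 3 groups, and Chd7 was 1.08 to 1.46 higher, a gap of at least 1 in every group that 17.3% of all genes also had. Chd3 was 1.31 to 1.66 lower, as were 8.03% of all genes by at least 1. The other 7 stayed within 0.74 of Day0 in every group. Atrx was 0.45 to 0.74 lower and Ino80 was 0.38 to 0.57 lower, whereas Chd4 was 0.42 to 0.65 higher.

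Smarca1 and Atrx are the X-linked members, and over days 4 to 7 they moved in opposite directions while differentiating female cells silence 1 of their X chromosomes. Their promoter windows from RefSeq (GRCm38.p6, from 250 bases before to 50 after the start) are shown with each CG in capitals, since CG content is the feature in which they stood lowest among the matched remodellers.
Smarca1 chrX:47892564-47892863 (minus strand): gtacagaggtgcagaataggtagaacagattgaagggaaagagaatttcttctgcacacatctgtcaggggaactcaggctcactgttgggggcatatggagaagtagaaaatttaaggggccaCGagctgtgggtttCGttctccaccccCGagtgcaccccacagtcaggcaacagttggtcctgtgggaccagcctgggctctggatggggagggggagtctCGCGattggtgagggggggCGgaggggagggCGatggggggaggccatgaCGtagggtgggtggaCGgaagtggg
Atrx chrX:105929323-105929622 (minus strand): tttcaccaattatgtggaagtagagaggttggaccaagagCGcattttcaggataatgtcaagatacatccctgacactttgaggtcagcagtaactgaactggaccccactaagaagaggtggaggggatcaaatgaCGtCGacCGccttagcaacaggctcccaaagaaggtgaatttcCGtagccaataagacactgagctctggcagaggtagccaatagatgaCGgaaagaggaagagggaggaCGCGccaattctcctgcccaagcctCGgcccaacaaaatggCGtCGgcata
Smarca1 had 9 CG in its window and Atrx had 11, and 54.2% and 58.6% of the 32851 windows in the table had fewer. Smarca5, Chd4, Chd8, Ino80 and Ep400 had 17 to 33 CG in their windows, and 7 of the 10 remodellers were matched in all. The letters TATAAA, searched on both strands, were in none of these windows and in 13.6% of all windows. The RefSeq start of Smarca1 lies 361 bases downstream of the start of its table entry, so the window covers 1 of its possible starts, and no reading of methylation or binding at these windows was part of the data used here.

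The partners that work with these motors were taken from lists chosen by complex. With knockdown 0 of 11 ISWI partners were called by limma, 3 of 15 other CHD genes and NuRD subunits, 1 of 31 entries for subunits of INO80, SRCAP and TIP60 (30 genes, with 2 entries for Srcap), and 0 of 10 genes for the ATRX partner and other SNF2-family enzymes, against 11.6% of all genes. The 4 called genes each had the same sign in 8 of 8 same-day differences. Chd5, a CHD gene best known from brain and testis, was higher by 0.77 ± 0.11 (log2, SE, limma adjusted p = 0.00349), and Mta3, a NuRD scaffold, by 0.21 ± 0.06 (limma adjusted p = 0.0391). Mbd2, the NuRD subunit that binds methylated DNA, was lower, with a change of -0.39 ± 0.11 (limma adjusted p = 0.0405), as was Kat5, the acetyltransferase of TIP60, at -0.25 ± 0.07 (limma adjusted p = 0.0449). These 4 calls were not examined under other settings or with libraries left out. The median changes of the 4 lists were 0.01, -0.09, -0.07 and 0.05 in the same order, beside -0.01 over all genes.

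Change per day was then counted in the same lists. It crosses the library sets, and the lists were not counted again without day 6. Of the ISWI partners 4 fell and 2 rose, of the CHD and NuRD list 5 fell and 3 rose, of the INO80, SRCAP and TIP60 entries 12 fell and 3 rose, and of the ATRX partner and SNF2-family list 9 fell and 0 rose. These are 54.5%, 53.3%, 48.4% and 90.0% of the 4 lists, against 60.5% of all genes called, 25.6% lower and 34.9% higher. Their median changes per day were -0.05, -0.09, -0.12 and -0.24, beside 0.04 over all genes. Among ISWI partners, Bptf, the large subunit of NURF, had a change of -0.41 per day and Pole3 one of -0.31, while Baz1a rose by 0.37 and Chrac1 by 0.21. In the CHD and NuRD list, Chd5 fell by 0.75 and Chd9 by 0.40 per day, while Mbd2 rose by 0.50 and Mta1 by 0.48. Among the called INO80 and TIP60 subunits, Nfrkb and Epc1 had the largest falls, at -0.49 and -0.43 per day, and Actr5 and Kat5 rose by 0.33 and 0.31. Morf4l1 had a change of -0.51 per day with an SE of 0.57 and was not called. Hells, which aids DNA methylation, fell by 0.72 per day and Smarcad1 by 0.62, and Daxx, the partner of Atrx, fell by 0.23.

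**Figure D5:**
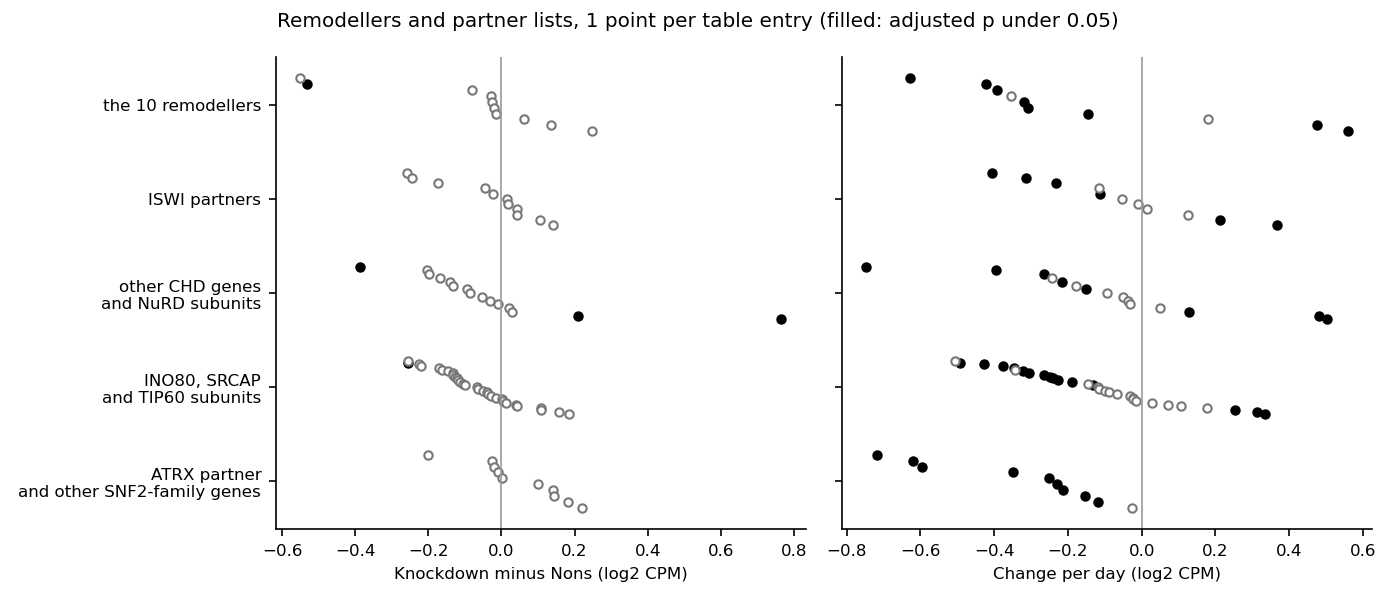
Change with knockdown (left, log2 CPM) and change per day (right, log2 CPM per day) of the 10 remodellers and of 4 partner lists, 1 point per table entry, filled where the limma adjusted p was under 0.05. With knockdown Chd7 is the filled point among the remodellers and 4 points are filled among the partners, whereas per day 9 of 10 genes in the ATRX partner and SNF2-family list are filled and lie below 0.

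The genes with the most similar course were ranked by Pearson's r of log2 CPM over the 12 libraries, which share days and groups, so the values describe likeness only. These include the day 6 libraries, so a step shared between the library sets enters r as well. Smarca5 was closest to Npm1 (r = 0.996), Eif2s3x (0.991) and Dnaja1 (0.991). Smarca1 was closest to Kcnk1 (0.978), Chd3 to Sema3e (0.989), and Chd7 to St6gal2 at 0.942, the lowest first value of the 10. Chd1 was closest to Hnrnph2 (0.994), Chd4 to Smap2 (0.990) and Chd8 to E2f8 (0.994). Chd1 and Chd4 shared Nsd1 as their second gene (0.991 and 0.990), and the second for Chd8 was Ino80e (0.993), an INO80 subunit. Atrx was closest to Pml (0.995), Ino80 to E130012A19Rik (0.990) and Ep400 to Usp8 (0.978).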

How the data were processed

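RNA was sampled for 13 libraries, 1 per group and day, and the authors made paired-end libraries, trimmed the reads and aligned them with tophat or hisat2 (TopHat2 2.0.12 in the submitters' processing notes) to mm10 with FVB/NJ and CAST/EiJ variants masked. Which library had which aligner, the strand setting and the annotation release are not given in the sources used here. The authors counted reads per gene in Seqmonk and deposited log2 values of CPM, with a gene at 0 reads written as 0.9 reads, and 100% of low values lay within 0.1 of a whole read. Depth was recovered from these steps, and the number of reads sets a counting error only, since reads carried no molecular identifiers.

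The 12 libraries of days 4 to 7 entered the tests, on the 13406 genes (507 of them X-linked) whose log2 CPM averaged 0 or more, in limma 3.58.1 and R 4.3.3 (lmFit and eBayes with a trend, 2-sided, Benjamini-Hochberg adjusted over all tested genes, threshold 0.05). Knockdown and each hairpin were compared with Nons with day as a factor, day entered as a number with the groups as factor for the change per day, and the interaction as knockdown by day. In the comparisons of groups the days served as replicates, and Day0 entered no test. Knockdown against Nons counted both hairpin libraries of a day as separate points beside the same Nons library. In the change per day and the interaction with day as a number, the libraries of a day counted as separate points. The deposited log2 values were used with no pseudocount added. The models were also run on simulated counts, which held no library sets and no variation shared by the libraries of a day. Those runs thus cannot show how such features bear on the calls. Alternatives covered the filter, scaling, pseudocount, spread, voom on recovered reads, the block and each library or day left out.

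Exon lengths, overlaps and copies (blastn 2.17.0, at least 85% identity over 300 bases) came from GENCODE M21, which uses the mm10 assembly. Guides were read from the study's hairpin sequences. Python 3.11.15, numpy 2.4.6, pandas 2.3.3 and matplotlib 3.10.9 were used. Text named all 10 remodellers and Smarcc1, partner genes called with knockdown with the same sign in 8 of 8 differences, the 2 largest called rises and falls per day of each partner list, Daxx and single marker genes, chosen after their values were seen, and the 3 nearest genes of each member. Marker lists of pluripotency and of mesoderm, endoderm and trophoblast are reported with the results, and those of neural, fibroblast and proliferating cells in the closing section. Members and lists were chosen with earlier results of these data known.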

Additional observations from a re-analysis of the deposited data

Results flagged for a closer look

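The difference between knockdown and Nons in Smarca1 changed with day when day entered the model as a factor, by 0.40 per day on the log2 scale (SE 0.09, limma adjusted p = 0.0358). The mean of the 2 hairpins was -1.18 from Nons on day 4, -0.73 on day 5, -0.33 on day 6 and 0.04 on day 7. With day as a number the same 0.40 had an SE of 0.21 and an adjusted p of 0.968, and the model with day as a factor was chosen after the data were seen.

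Of 33 groups of 4 libraries examined (the 10 remodellers and Smarcc1 in 3 groups), none had a library whose gap to its neighbour passed Dixon's limit. The chance rate of about 1 in 20 holds for draws from 1 population, whereas these were 4 successive days of a time course. A trend over days widens the range against which the gap is set, so this rule cannot show that no library was outlying. Smarca5 on day 6, at -1.598, -1.579 and -1.558 from the mean of days 5 and 7 in the 3 groups, was not flagged.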

How the results depend on the processing

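Over 1330 values of the 10 remodellers under alternative settings, 1292 kept their side of the threshold, 21 lost a call, 17 gained one and 0 called values changed sign, while 73 of those that were never called had the opposite sign. Chd7 against Nons stayed called in 14 of 24 settings, with adjusted p from 0.00752 to 1.00, and Smarca1 became called in 5. The changes per day of Chd1, Chd3, Chd4, Chd8, Ino80 and Atrx stayed called in 21 of 21 settings.

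The number of genes called with knockdown, 1561, became 4 with no replicate block (day left out of the model), 57 when the Nons libraries were fitted with Smarcc1.6 only and 0 with Smarcc1.7 only, and without the block Chd7 was no longer called (adjusted p = 1.00). Without the block Smarcc1.6 had 0 genes in place of 1247 and Smarcc1.7 had 0 in place of 329. Smarcc1.7 had 145 with a spread that does not depend on expression, the comparison of the hairpins had 2 with no filter on low values, and the interaction had 503 with day as a factor, a setting added after the data were seen. The cause of each was not tested. With 1 library or 1 day left out, the counts ran from 287 to 2003 for knockdown, 178 to 1694 for Smarcc1.6, 1 to 1052 for Smarcc1.7 and 6679 to 8371 for the change per day. Day 5 and day 6 were the days whose loss took the most calls from knockdown, leaving 386 and 287. Replicate numbers stand for days, and each library stands alone for its group and day, so the spread between cultures of the same day could not be measured.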

Other observations

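Markers of other cell types that these cultures could hold were measured as well. Of 5 tested fibroblast and smooth muscle markers, 4 rose and 1 fell per day, with a median change of 2.21 per day, and their summed level over 6 listed markers went from 11.6 CPM at Day0 to at most 988 CPM in Nons, 1299 with Smarcc1.6 and 1242 with Smarcc1.7. With knockdown 2 of the 5 were called higher, Col1a2 by 2.82 (limma adjusted p = 0.000923) and Thy1 by 0.83 (limma adjusted p = 0.024). The median over the 5 was 0.15, and Tagln and Acta2 had changes of -1.002 and -0.92 that missed the threshold (limma adjusted p = 0.0974 and 0.142). Neural markers had 3 tested of 5 listed, of which Nes rose per day, by 1.11, and Sox1 was higher with knockdown, by 2.07 (limma adjusted p = 0.0478), while Nes had a change with knockdown of -0.41 that missed the threshold (limma adjusted p = 0.154). Their summed level was 42.6 CPM at Day0, 43.7 to 259 in Nons, 33.1 to 261 with Smarcc1.6 and 35.9 to 199.95 with Smarcc1.7.

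Of 10 proliferation markers, 5 fell and 1 rose per day and 0 were called with knockdown by limma. Mcm2, Mcm3, Mcm5 and Mcm6, subunits of the replicative helicase, fell by 0.38, 0.36, 0.22 and 0.44 per day. Top2a fell by 0.145 per day and Cdk1 rose by 0.11. The summed level of the 10 markers was 3780 CPM at Day0 and between 2969 (Nons on day 6) and 4861 CPM in the 12 later libraries. Day0 and day 6 belong to 1 library set, so this range and the changes per day of the marker lists cross the sets.

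The ratio of the ISWI motors per kb of exon, Smarca5 over Smarca1, was 71.0 fold at Day0, which belongs to the library set of day 6 and not to that of days 4, 5 and 7. On day 4 it was 28.1 fold in Nons, 74.1 with Smarcc1.6 and 56.6 with Smarcc1.7, and on day 7 it was 13.6, 14.2 and 10.98. On day 6, where Smarca5 was lowest, it was 3.90 to 4.98 fold.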
